A study of Mus musculus with 4 samples.

Results

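The genes described here build the outer barrier of the skin. They comprise every probe set whose platform gene symbol starts with Sprr or Lce, or is one of 21 named genes of the cornified envelope and of barrier lipids. The rule found 65 of the 45037 probe sets in the value table, standing for 45 of 18193 genes with a symbol of their own, and 3 of the 65 probe sets match several Sprr2a genes at once and were counted apart. Transcripts were measured in whole skin, epidermis with dermis, of 4 mouse embryos at E14.5, with 1 embryo per Affymetrix mouse 430 2.0 array. The 2 mutant embryos were KRT14-Cre Ctnnb1(Ex3)fl/+, so that a recombinase driven by the promoter of the basal keratin KRT14 deletes exon 3 from 1 floxed Ctnnb1 allele and the keratinocytes make a beta-catenin that escapes degradation. The 2 control embryos were littermates, which the authors' deposited table calls wt, with no further genotype given. In whole skin, fewer cells of a type and less RNA per cell cannot be told apart.

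The cornified envelope is a shell of cross-linked protein that replaces the plasma membrane of keratinocytes as they die at the skin surface. Loricrin, involucrin, filaggrin, the small proline-rich (Sprr) proteins and the late cornified envelope (Lce) proteins are joined by transglutaminases, and ceramides made from very long chain fatty acids coat the shell. In mice this programme starts in the suprabasal layers as the epidermis stratifies, and the barrier closes shortly before birth.

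The signal is the MAS5 intensity that the authors deposited, on a linear scale. Array medians lay between 27.7 and 32 and array means between 219 and 227. With so few arrays every value is imprecise, and p-values measure the spread between these embryos only. Markers of the tissue were present in both groups. Of 4 dermal markers 2, Dpt and Twist2, fell in mutant skin, where 1.22% of all genes passed as lower. They fell by 1.38 (limma adjusted p = 0.0124) and 1.5 (limma adjusted p = 0.0162) on the log2 scale. The dermal collagen Col3a1 read 8604 and 7229 in mutant skin, against 9491 and 7767 in control skin, and the basal keratin Krt14 read 934 and 1446 in mutant skin, against 1841 and 2528 in control skin. Ctnnb1 read 6197 and 5773 in mutant skin, against 6302 and 5335 in control skin, and since the position of its probe set relative to exon 3 is not known here, this does not check the deletion. The 2 control arrays stood apart on the barrier genes. Of the 17 genes with a mean signal at or above the median of all probe sets (31.1) in at least 1 group, 15 were higher in control 2 than in control 1, with a median log2 difference of 1.01, where the median over all genes was -0.01. Between the mutants, 15 of the 17 were higher in mutant 2, by a median of 0.27. The results that rest on a single control are therefore given below with and without it.

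Most of the barrier genes were at the bottom of the signal range in both groups, and those that passed the test were all lower in mutant skin. Of the 45 genes, 28 (62.2%) had a mean signal under 31.1 in mutant and in control skin, as did 34.6% of all genes. In a limma fit over all 45037 probe sets, 1.95% passed an adjusted p of 0.05, 0.717% as lower in mutant skin and 1.24% as higher. Of these barrier genes, 4 of the 45 passed as lower, against a background of 1.22% of all genes. These were Them5, Capns2, Krtdap and Elovl4. All 4 are among the 21 named genes, which were chosen with earlier results of these data known, so the count is no independent support. Of the 9 Sprr and 15 Lce genes, taken by symbol alone, none passed as lower. None of the 45 passed as higher, against a background of 2.00%, and at an unadjusted p under 0.05 the limma counts were 8 lower and 3 higher of 45, where 9.65% of all genes were lower and 10.9% higher. The median log2 fold change was 0.01 over the 45 genes and -0.27 over the 17 that were on, against 0 and -0.02 over all genes and over all genes that were on. Both mutants lay under both controls for 11 of the 45 genes and above both for 7, where 25.2% and 25.4% of all genes did so. When dim probe sets were left out of the fit, 17 of the 45 genes were tested, 6 passed as lower and 1 as higher, the additions being Lor, Sbsn and Calml3. The background in that fit was 3.78% lower and 4.96% higher, and since a gene bright in only 1 group can enter it through that group, its counts describe only the genes that entered.

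**Figure D1:**
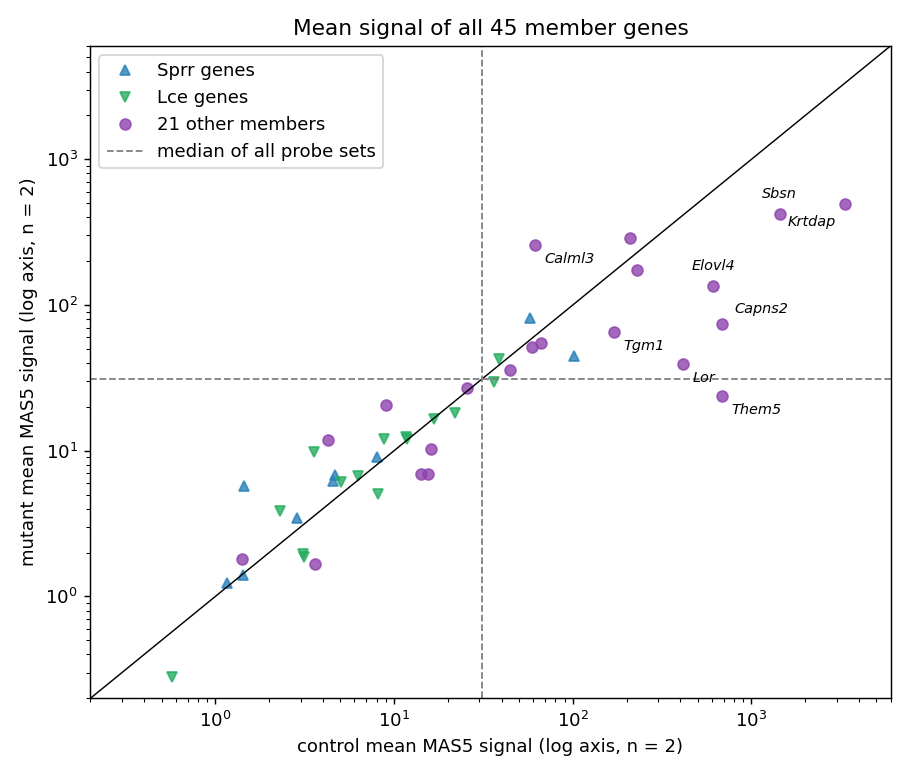
Mean signal of the 45 genes in mutant skin (vertical axis) against control skin (horizontal axis), both on log axes, 1 point per gene (n = 2 arrays per group), with the median of all probe sets dashed and equality as a solid line. The 28 genes dim in both groups fill the lower left corner, and the 8 labelled genes are those that were on and whose log2 fold change was under -1 (7 genes, below the line of equality) or over 1 (Calml3, above it).

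The signals are relative to each array as a whole. Poly-A RNA spiked into the samples read lower in the mutants, with mean log2 signals of 6.52 and 6.50 in mutant arrays, against 7.89 and 7.44 in control arrays over 12 probe sets. Scaled by these spikes, the median of all genes moves by 1.16 on the log2 scale. Them5, Capns2, Krtdap, Elovl4 and Lor are still lower in mutant skin and pass on that scale, while the smaller negative changes of Lypd3, Tgm3, Casp14, Lce1i and Sprr1b turn positive. On that scale 40948 of the 45037 probe sets pass, and 35 of the 45 barrier genes pass as higher, so that passing there says little. How much spike RNA went into each sample is not known here, and all other values are relative to the whole array.

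The proximal promoters of 4 of the genes, chosen after their values were seen, are shown because they carry the site of AP-1, a factor long tied to the control of terminal differentiation in keratinocytes. Each runs from 250 bases before to 50 bases after the start site in RefSeq (build GRCm38.p6), 5′ to 3′ on the strand of the gene, with matches to TGANTCA on either strand in capitals. Krtdap (chr7:30787655-30787954, plus strand) and Sbsn (chr7:30751221-30751520, plus strand) lie on both sides of Dmkn with no other protein-coding gene between them. Lor (chr3:92083093-92083392, minus strand) lies in the epidermal differentiation complex. Sprr1a (chr3:92485832-92486131, minus strand), of the same complex, is shown beside them since its signal was not lower in mutant skin.
Krtdap: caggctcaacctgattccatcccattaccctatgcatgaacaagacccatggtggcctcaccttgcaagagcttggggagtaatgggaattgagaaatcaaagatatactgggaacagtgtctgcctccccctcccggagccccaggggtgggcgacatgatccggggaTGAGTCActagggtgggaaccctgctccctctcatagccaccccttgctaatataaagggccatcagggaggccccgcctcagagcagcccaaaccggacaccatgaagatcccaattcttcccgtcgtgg
Sbsn: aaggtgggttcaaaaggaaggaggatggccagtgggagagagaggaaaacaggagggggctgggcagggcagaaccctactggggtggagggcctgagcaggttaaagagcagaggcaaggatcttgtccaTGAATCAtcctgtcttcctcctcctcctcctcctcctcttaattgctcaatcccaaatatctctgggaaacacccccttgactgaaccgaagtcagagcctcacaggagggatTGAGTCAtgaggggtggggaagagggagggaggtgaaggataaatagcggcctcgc
Lor: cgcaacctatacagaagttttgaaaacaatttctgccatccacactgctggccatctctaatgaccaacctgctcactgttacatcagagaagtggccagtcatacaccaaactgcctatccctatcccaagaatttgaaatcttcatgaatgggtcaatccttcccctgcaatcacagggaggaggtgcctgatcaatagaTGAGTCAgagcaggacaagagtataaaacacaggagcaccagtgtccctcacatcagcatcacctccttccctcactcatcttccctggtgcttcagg
Sprr1a: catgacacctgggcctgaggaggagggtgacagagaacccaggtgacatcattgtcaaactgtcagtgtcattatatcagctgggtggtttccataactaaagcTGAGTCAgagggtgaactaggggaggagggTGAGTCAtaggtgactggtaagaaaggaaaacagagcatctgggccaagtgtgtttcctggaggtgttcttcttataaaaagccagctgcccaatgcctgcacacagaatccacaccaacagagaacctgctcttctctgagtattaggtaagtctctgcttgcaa

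The match begins at position -81 in Krtdap, at -119 and -6 in Sbsn, at -48 in Lor and at -146 and -116 in Sprr1a. A promoter was found for 41 of the 45 genes, and 13 of these hold a match, where 7.81% of all 32851 RefSeq windows do. The 13 comprise 5 genes that were on and 8 that were dim in both groups, and 5 of the 8 are close relatives within the Sprr2 family, which share much of their sequence. Of the 7 genes with a log2 fold change under -1, the match is in Krtdap, Sbsn and Lor and not in the windows of Them5, Capns2, Elovl4 and Tgm1. The TCF/LEF motif CTTTGAT, searched on both strands, was found in the windows of Krtdap and Tgm1 and in 3.73% of all windows. The GRHL motif AACCNGTT was found in 2 of the 41 genes (2.09% of all windows) and the AP-2 motif GCCNNNGGC in 6 of the 41 (16.6% of all windows). These are letter matches and no measure of binding.

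Of the structural genes Lor, Cnfn, Ivl, Flg and Rptn, Lor and Cnfn were on and the other 3 were dim in both groups. Lor, which encodes the main protein of the mature envelope, read 38.7 and 40.6 in mutant skin, against 173 and 657 in control skin. Both mutants lay under both controls, and among the 17 genes that were on, the controls lay further apart on the log2 scale only for Sprr1b. Its log2 fold change was -2.87 (SE 0.55) and did not pass (limma adjusted p = 0.0675). Lor did pass without control 1 (adjusted p = 0.00825) but not without control 2 (-1.94, adjusted p = 0.0623), without mutant 1 (adjusted p = 0.278) or without mutant 2 (adjusted p = 0.267). A second Lor probe set, chosen after its values were seen, read 67.2 and 60 in mutant skin, against 231 and 413 in control skin, a log2 fold change of -2.15 that passed (limma adjusted p = 0.02). The remaining probe set of Lor was dim, at 11.5 and 13.9 in mutant skin, against 20.9 and 5.43 in control skin.

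Involucrin, filaggrin and repetin, further building blocks of the envelope and of the keratin matrix beneath it, were not above the dim range at this stage. Ivl read 1.38 and 12.4 in mutant skin, against 9.55 and 18.8 in control skin. Flg read 0.393 and 2.94 in mutant skin, against 3.17 and 4.01 in control skin. Rptn read 13.4 and 7.18 in mutant skin, against 28 and 4.02 in control skin. All 3 lay in the range of genes that skin does not use, where a fall is not detectable. In that range, 14 genes of eye, testis, pancreas, kidney, liver, lung and thyroid, such as Rbp3, Prm1 and Umod, had a median signal of 7.54 and reached 32.7 at most. Cnfn, which encodes cornifelin, read 37.7 and 65.2 in mutant skin, against 23.9 and 95.2 in control skin, with both mutants between the controls (log2 fold change 0.01, SE 0.56, limma adjusted p = 0.996). The sign of this change is negative with quantile or median scaling.

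The Sprr family, small proline-rich cross-bridging proteins, had few members on. Of 9 Sprr genes measured by a probe set of their own, Sprr2d, Sprr2f, Sprr2h, Sprr2i, Sprr2k, Sprr3 and the pseudogene Sprr2j-ps were dim in both groups, with no signal above 10.6 on any array. Sprr1a read 77.6 and 85.2 in mutant skin, against 45.5 and 69.1 in control skin. Both mutants lay above both controls, and the change of 0.48 on the log2 scale (SE 0.23) missed the threshold (limma adjusted p = 0.391). Sprr1b read 35.2 and 54.3 in mutant skin, against 32.6 and 172 in control skin. The groups overlapped, since control 1 was as low as the mutants, and the log2 fold change was -0.72 (SE 0.66, limma adjusted p = 0.67) with all arrays and 0.35 without control 2.

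The Sprr2a genes behaved otherwise. These are near-identical copies that the probe sets cannot tell apart. The probe set matching Sprr2a1 and Sprr2a2 read 6.86 and 25.2 in mutant skin, against 157 and 177 in control skin, a log2 fold change of -2.99 (SE 0.39, limma adjusted p = 0.0227). The probe set matching these and Sprr2a3 read 61 and 62.4 in mutant skin, against 219 and 229 in control skin, a log2 fold change of -1.74 (SE 0.14, limma adjusted p = 0.00497). Both fell, and on both the controls were nearly equal, unlike on Lor or Sprr1b. The first lost its call without control 1 (adjusted p = 0.107) or control 2 (adjusted p = 0.17), and the second without control 2 (adjusted p = 0.0566). The first also lost it without the variance trend (adjusted p = 0.0814), and the second with spike scaling (-0.58, adjusted p = 0.0705). A further probe set matching Sprr2a1 and Sprr2a2 was dim, at 1.7 and 8.24 in mutant skin, against 3.31 and 1.16 in control skin.

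The Lce family, envelope proteins of the outermost living layer, was dim or close to the median of all probe sets. Of 15 Lce genes, 13 were dim in both groups, namely Lce1a1, Lce1a2, Lce1b, Lce1c, Lce1d, Lce1f, Lce1g, Lce1h, Lce1l, Lce1m, Lce3a, Lce3c and Lce3f. The highest single signal among them was 39 (Lce1h in control 1) and their median signal was 6.08. The other 2 were only just above the line. Lce1i read 31.1 and 28 in mutant skin, against 31.5 and 41.1 in control skin (log2 fold change -0.23, SE 0.25, limma adjusted p = 0.721). Lce3b read 42.3 and 43.4 in mutant skin, against 43.4 and 33.6 in control skin (log2 fold change 0.14, SE 0.23, limma adjusted p = 0.837). Both are read by probe sets whose _x_at suffix marks probes that can bind related transcripts. Aloxe3, at 25.7 and 28.2 in mutant skin, against 22.7 and 28.4 in control skin, was the brightest gene left on the dim side.

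Loricrin, involucrin, filaggrin, repetin, the Sprr genes and the Lce genes lie side by side on chromosome 3 in the epidermal differentiation complex. Of the 28 genes measured from Lor to Rptn, 23 were dim in both groups and 5 were on. By its brightest probe set none of the 28 passed the limma threshold in either direction, where 1.22% of all genes passed as lower and 2.00% as higher. At an unadjusted p under 0.05 there were 1 lower (Lor) and 1 higher (Lce3f), where 9.65% of all genes were lower and 10.9% higher. The Sprr2a genes, which lie in the same complex, are not among the 28. Of the 3 probe sets that match them 2 passed as lower, where 0.717% of all probe sets did. These 2 read near-identical copies and are not separate results, and neither call held with every array left out in turn. Of the 17 genes outside the stretch from Lor to Rptn 12 were on and 4 passed, all lower in mutant skin, against the same 1.22% of all genes. Whether the 2 sets differ was not tested.

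**Figure D2:**
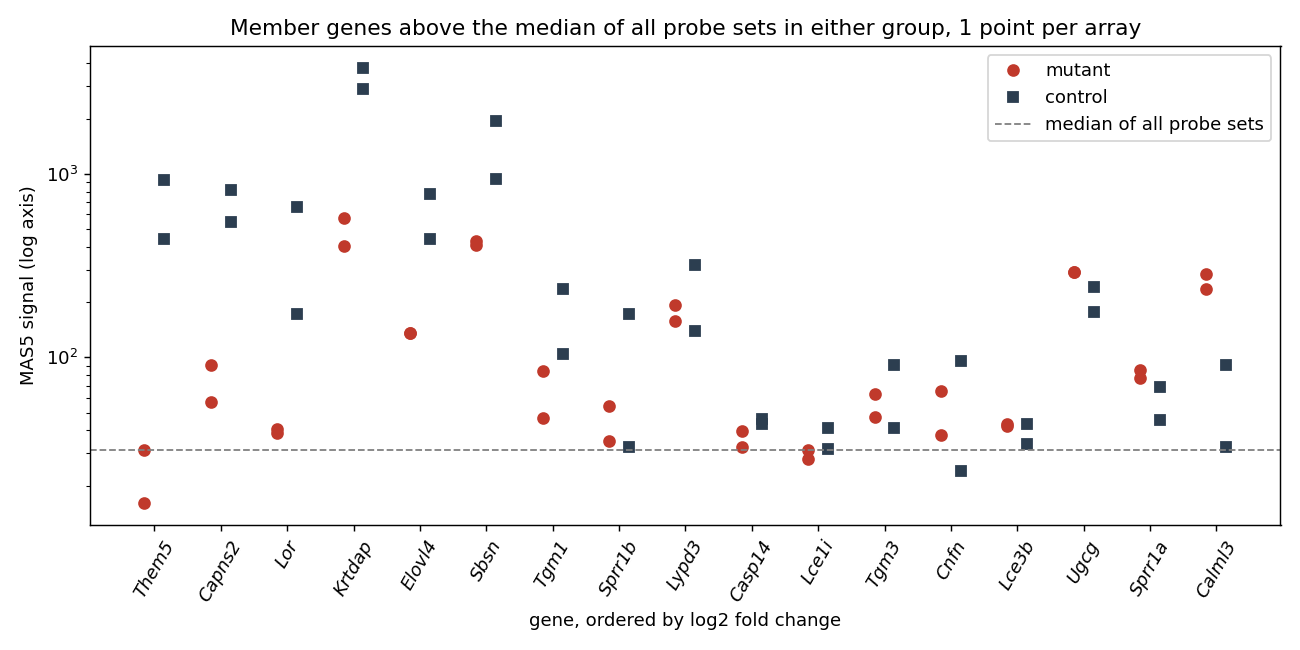
Signal on each array (log axis) for the 17 genes at or above the median of all probe sets in at least 1 group, mutant arrays as circles left of control arrays as squares, ordered by log2 fold change. Both mutants lie under both controls for the genes on the left from Them5 to Tgm1, while the groups overlap for Sprr1b, Lypd3, Tgm3, Cnfn and Lce3b.

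Of 4 genes of small secreted and surface proteins of differentiating keratinocytes, Krtdap alone passed, as lower, where 1.22% of all genes did. The other 3 did not pass, Sbsn and Lypd3 with negative log2 fold changes and Calml3 with a positive one. Krtdap, which encodes a keratinocyte differentiation-associated secreted peptide, read 406 and 575 in mutant skin, against 2901 and 3783 in control skin. No array of one group came near the other, and Krtdap fell by 2.76 on the log2 scale (SE 0.20, limma adjusted p = 0.00412). Krtdap passed in all 15 alternatives tried, and its log2 fold change was -3 to -2.51 with 1 array left out. It has no other probe set, so the alternatives that change the probe set could not alter its value. Sbsn, which encodes the secreted protein suprabasin, read 410 and 432 in mutant skin, against 942 and 1945 in control skin. Its groups did not overlap, its log2 fold change was -1.67 (SE 0.31), and it did not pass (limma adjusted p = 0.0628). Without control 1 it passed, with a log2 fold change of -2.19 (adjusted p = 0.0114), but not without control 2 (-1.15, adjusted p = 0.0575), mutant 1 (adjusted p = 0.276) or mutant 2 (adjusted p = 0.254). The other 2 probe sets of Sbsn were also lower on both mutant arrays, at -1.54 (limma adjusted p = 0.0835) and at -1.83 on the log2 scale (limma adjusted p = 0.17).

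Calml3, a calmodulin-like calcium sensor of epithelial cells, had the highest positive log2 fold change of the 45 genes. It read 235 and 285 in mutant skin, against 32.3 and 90.6 in control skin, so that both mutants were above both controls. The change, 2.09 on the log2 scale (SE 0.40), missed the threshold (limma adjusted p = 0.0675). It passed in 6 of 15 alternatives, among them the fit without control 1 (1.44, adjusted p = 0.0484) and without control 2 (2.74, adjusted p = 0.0261), but not without mutant 1 (adjusted p = 0.257) or mutant 2 (adjusted p = 0.303). Lypd3, a cell surface protein of the urokinase receptor family, read 158 and 192 in mutant skin, against 139 and 318 in control skin. Both mutants lay between the controls (log2 fold change -0.27, SE 0.36, limma adjusted p = 0.785), and without control 2 the sign turned, to 0.31.

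Of the cross-linking enzymes none passed in the limma fit. At an unadjusted p under 0.05 there was 1 lower, Tgm1, and none higher, where 9.65% of all genes were lower and 10.9% higher. Tgm1, the membrane-bound transglutaminase of the envelope, read 46.8 and 83.9 in mutant skin, against 104 and 237 in control skin. Its groups were apart, but its log2 fold change of -1.23 (SE 0.41) had a limma adjusted p = 0.222. The change was -0.66 without control 2 and -1.79 without control 1. Tgm3, which acts in epidermis and hair, read 47.3 and 63 in mutant skin, against 41.4 and 91.1 in control skin, and its groups overlapped (log2 fold change -0.16, SE 0.36, limma adjusted p = 0.885). Its second probe set, at 47.8 and 45.3 in mutant skin, against 44.7 and 54.8 in control skin, overlapped as well. Tgm5 was dim, at 4.84 and 18.9 in mutant skin, against 4.96 and 3.56 in control skin.

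Of the proteases, Capns2 fell and caspase-14 depended on the probe set. Capns2, a small regulatory subunit of calpains, read 57.2 and 91.3 in mutant skin, against 545 and 819 in control skin. It fell by 3.08 on the log2 scale (SE 0.26, limma adjusted p = 0.00621) and lost its call only without control 2 among the 15 alternatives (-2.78, adjusted p = 0.06). Casp14, the caspase of cornifying keratinocytes that takes part in breaking down filaggrin, read 32.5 and 39.5 in mutant skin, against 45.9 and 43.3 in control skin by its brighter probe set, an _x_at set (log2 fold change -0.26, limma adjusted p = 0.647). The other Casp14 probe set, chosen after its values were seen, read 0.685 and 1.61 in mutant skin, against 42.9 and 84.9 in control skin. That log2 fold change was -2.95 (SE 0.36, limma adjusted p = 0.0186), and since the mutant signals lie under the offset of 7.7 added before the logarithm, its size depends on the offset. Klk7, which cuts the junctions between shed cells, was dim, at 25.6 and 15.5 in mutant skin, against 11.8 and 6.13 in control skin.

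Genes of barrier lipids held the largest fall among the 45 genes. Them5, an acyl-CoA thioesterase, read 16.1 and 31.1 in mutant skin, against 442 and 930 in control skin. The mutant signals were those of dim genes, and Them5 fell by 4.42 on the log2 scale (SE 0.39, limma adjusted p = 0.00649), a call that held in all 15 alternatives. A second probe set fell by 3.64 (limma adjusted p = 0.00816), and the last of its probe sets was dim. Elovl4, the elongase that makes the very long acyl chains of barrier ceramides, read 136 and 135 in mutant skin, against 442 and 779 in control skin. Elovl4 fell by 2.05 (SE 0.25, limma adjusted p = 0.0192), and lost its call without mutant 1 (adjusted p = 0.121), mutant 2 (adjusted p = 0.127) or the variance trend (adjusted p = 0.0902). Its second probe set had a log2 fold change of -1.99 (limma adjusted p = 0.0566).

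Ugcg, the glucosylceramide synthase that makes the precursor of barrier ceramides and works in most cell types, was not lower. It read 290 and 291 in mutant skin, against 177 and 243 in control skin, with both mutants above both controls (log2 fold change 0.47, SE 0.17, limma adjusted p = 0.244). Another Ugcg probe set also had both mutants above both controls (log2 fold change 0.54, limma adjusted p = 0.163). In a further one the groups overlapped (log2 fold change 0.13, limma adjusted p = 0.787), and the last was dim. The other 3 lipid genes of the rule were dim. Abca12, which loads lipids into lamellar granules, read 5.69 and 8.13 in mutant skin, against 17.8 and 13.3 in control skin. Alox12b, the lipoxygenase that oxidises barrier ceramides, read 2.4 and 1.2 in mutant skin, against 2.11 and 0.709 in control skin, and its partner Aloxe3 was dim as given above.

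**Figure D3:**
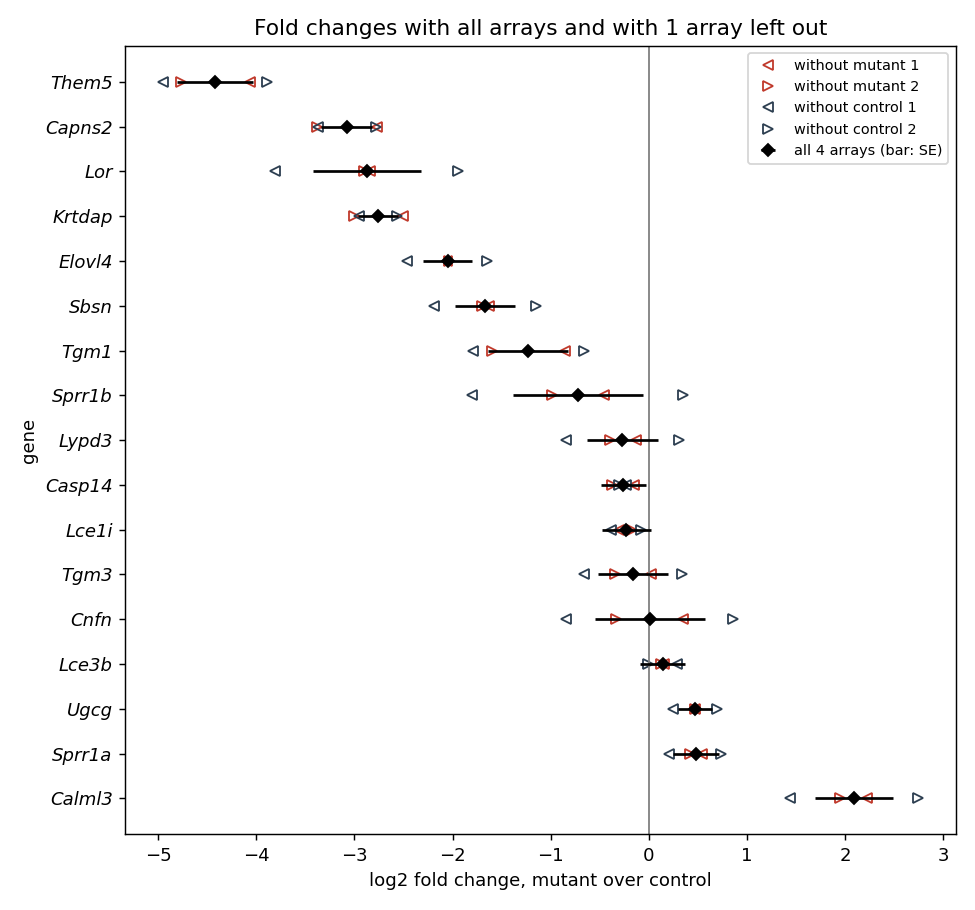
Log2 fold change (mutant over control) of the 17 genes with all 4 arrays (diamonds, bar ± SE) and with each array left out in turn (open triangles). The values without control 1 and without control 2 lie furthest apart for Sprr1b, Lor and Cnfn, while Krtdap, Capns2 and Them5 stay at -2.51 or lower in every fit.

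Other genes of the barrier, from a list written from general knowledge, moved in both directions. That list was chosen with earlier results of these data known, so its shares are no independent support. Of 40 measured genes 3 passed as lower and 2 as higher, where 1.22% and 2.00% of all genes did. The median log2 fold change of the 40 was -0.34. At an unadjusted p under 0.05 there were 15 lower and 5 higher of the 40, that is 37.5% and 12.5%, where 9.65% and 10.9% of all genes were. Dmkn, the gene of the secreted protein dermokine between Sbsn and Krtdap, read 372 and 583 in mutant skin, against 3064 and 4186 in control skin, and fell by 2.92 on the log2 scale (SE 0.24, limma adjusted p = 0.00568). All 3 neighbours thus had groups that did not overlap. Aqp3, the water and glycerol channel of keratinocytes, fell by 2.61 (limma adjusted p = 0.0171), and Nipal4, a barrier protein mutated in ichthyosis in humans, by 1.78 (limma adjusted p = 0.035). St14, the membrane protease matriptase, which works in epidermis and hair follicle, rose to 629 and 643 in mutant skin, against 65.4 and 85.9 in control skin (log2 fold change 2.96, SE 0.15, limma adjusted p = 0.00108). Smpd1, a lysosomal sphingomyelinase, rose by 1.08 (limma adjusted p = 0.0101).

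The suprabasal keratins, which mark the cells that go on to make the envelope, fell as well. Krt10 read 181 and 230 in mutant skin, against 4163 and 5636 in control skin (log2 fold change -4.52, limma adjusted p = 0.000623), and Krt1 fell by 5.50 (limma adjusted p = 0.000777). Control 2 was above control 1 for these keratins too, by a median of 0.44 over Krt1, Krt10 and Krt77. Of 4 basal keratinocyte markers none passed in the limma fit, with log2 fold changes of -0.89 to -0.23. At an unadjusted p under 0.05, 3 of the 4 were lower, where 9.65% of all genes were. The summed signal of the 4 was 3573 and 4537 in the mutants, against 5459 and 7368 in the controls. Of 10 measured markers of hair matrix, shaft and sheath 9 passed as higher, where 2.00% of all genes did. The summed signal of the 10 was 10401 and 8651 in the mutants, against 133 and 104 in the controls. The part of these cell types in the barrier gene values was not tested.

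**Figure D4:**
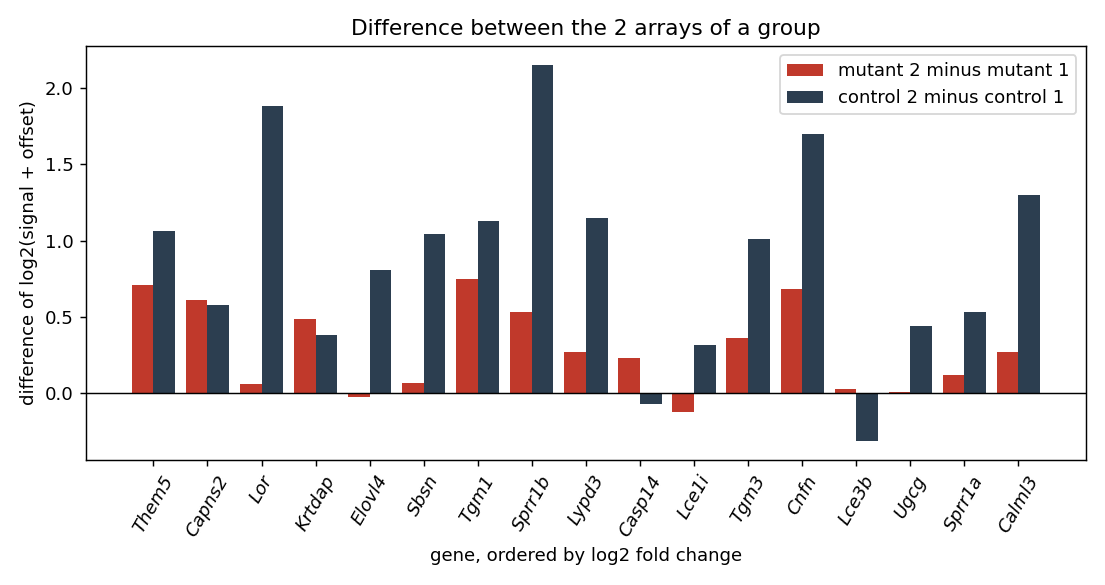
Difference of log2(signal + offset) between the 2 arrays of a group for the 17 genes, mutant 2 minus mutant 1 left of control 2 minus control 1. Bars above 0 mean that replicate 2 was higher, and the control difference is over 1 for Them5, Lor, Sbsn, Tgm1, Sprr1b, Lypd3, Tgm3, Cnfn and Calml3.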

How the data were processed

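The authors deposited 1 value table of MAS5 signal intensity on a linear scale, from GCOS and MAS5 per the submitters' processing notes. How the arrays were scaled to each other is not given in the sources used here. Arrays were grouped as mutant or control by their titles, 2 per group. The labels name epidermis and dermis as tissue, while the scanner settings deposited with the arrays give epidermis. Probe sets were named through GEO's platform annotation, in which 34945 have 1 gene, 932 several and 9160 none, and 64 array controls were left out.

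Before taking log2, 7.71 was added to each signal, the 25th percentile of all signals on the 4 arrays, which understates the change of dim genes. The fit was limma 3.58.1 (R 4.3.3) with a variance trend and Benjamini-Hochberg adjustment over all 45037 probe sets, without a filter, so that genes not yet on stay in view. The script was tested on simulated data. With 2 embryos against 2, an exact two-sided permutation test cannot go below p = 0.333, so single values were not tested in that way. The brightest probe set stands for a gene. All genes of the rule are named. A gene whose mean signal is under the median of all probe sets (31.1) in both groups is called dim, and no fold change is read from it. The members and the gene lists were chosen with earlier results of these data known.

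Promoter windows are RefSeq sequences of build GRCm38.p6, matched by symbol. The authors' deposited table of changed probe sets gives a fold change made from GCRMA values and is filtered, per the file headers, at 2-fold, at an uncorrected Welch p of 0.01 and at Present calls in at least 2 of the 4 arrays. Same-numbered arrays share only a number in the labels.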

Additional observations from a re-analysis of the deposited data

How the results depend on the processing

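With 2 arrays per group, Krtdap and Them5 passed in all 15 alternatives, while the calls of Elovl4, Capns2, Lor, Sbsn, Tgm1, Calml3 and both Sprr2a probe sets that passed depended on the setting. Krtdap and Capns2 have no other probe set, so the alternatives that change the probe set could not move them. For Them5, leaving out _x_at and _s_at sets kept the same probe set. Passing with spike scaling says little, since most probe sets pass there. In all, 880 probe sets passed, against 1583 with the filter on dim probe sets, 234 without the variance trend, 40948 with poly-A spike scaling, 5901 by a plain 2-fold rule and 173 to 566 with 1 array left out. The 4 lower barrier genes became 9 by the 2-fold rule and 3 to 6 with 1 array left out. The count of higher genes, 0, became 1 with the filter or a common median, 35 with spike scaling, 3 by the 2-fold rule and 0 to 1 with 1 array left out. The 2-fold rule asks for a 2-fold ratio of the group means, without the offset, and for groups that do not overlap. It also takes in dim genes, with Abca12 and Flg among the 9 lower and Klk7 and Lce3f among the 3 higher. The median log2 fold change of 0.01 became -0.27 with the filter, 1.17 with spike scaling and -0.08 to 0.04 with 1 array left out. With the replicate number as a block, 1909 probe sets passed, 7 barrier genes were lower and 1 was higher. The paired numbers correlate at r = 0.155 over 22519 probe sets, a hint from 2 pairs only. Signs turned for Cnfn with an offset of 32 (-0.03), quantile scaling (-0.02) and a common median (-0.05). They turned with spike scaling for Lypd3 (0.89), Lce1i (0.92), Sprr1b (0.43), Tgm3 (0.99) and Casp14 (0.89). With 1 array left out, Cnfn ranged from -0.84 to 0.86, Lypd3 from -0.84 to 0.31, Sprr1b from -1.8 to 0.35, Tgm3 from -0.66 to 0.34 and Lce3b from -0.01 to 0.29, each turning sign without control 2 except Cnfn, which turned without control 1 and without mutant 2. Tgm3 also turned without mutant 1 (0.02). The filter changes which probe sets are tested, and leaving out an array changes how many, and for the other settings the cause was not tested. Taking the brightest probe set without _x_at or _s_at sets, chosen after seeing the data, gave 6 lower genes. A group left with 1 array was assumed to vary like the other. A dim signal limits what can be seen in 28 of the 45 genes.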

Other observations

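The authors' deposited table of changed probe sets lists 170 of the 45037 probe sets, 121 with a fold above 1 and 49 with a fold under 1. None of the 65 probe sets of the barrier genes is among them, and with so short a list this says little about so small a set.

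Of 7 markers of periderm and simple epithelium, the flat layer that covers the embryonic epidermis, 1 passed as higher in the limma fit, where 2.00% of all genes did. At an unadjusted p under 0.05 there were 3 higher and 1 lower of the 7, where 10.9% of all genes were higher and 9.65% lower. Krt6a, a keratin of periderm and of the companion layer of the hair follicle, rose to 304 and 427 in mutant skin, against 26.6 and 36.1 in control skin (log2 fold change 3.25, limma adjusted p = 0.00313). The median log2 fold change of the 7 was 0.34.

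Hrnr, which encodes the filaggrin-like protein hornerin, read 0.441 and 0.332 in mutant skin, against 25.5 and 86.3 in control skin, and did not pass (limma adjusted p = 0.0565). Among the 28 dim barrier genes, 4 had both mutants above both controls and 2, Abca12 and Flg, both mutants under both controls. The 4 were Klk7 (25.6 and 15.5 in mutant skin, against 11.8 and 6.13 in control skin), Lce3f (10.5 and 9.2 in mutant skin, against 2.49 and 4.6 in control skin), Lce1d (13.1 and 11.1 in mutant skin, against 7.57 and 10.1 in control skin) and Lce3c (6.22 and 5.94 in mutant skin, against 5.21 and 4.92 in control skin). Over all genes, dim or on, 25.4% had both mutants above both controls and 25.2% both under. These shares are no background for dim genes alone.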
